A study of Mus musculus with 20 samples.

Results

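Resident macrophages of mouse skeletal muscle were compared by whether they carried class II major histocompatibility complex (MHCII) on their surface. The members are the 4 libraries of the resident macrophage experiment, out of 20 libraries in the series, and they were chosen by their sort gates, not by any measured transcript. The other libraries came from infiltrating cells of injured muscle and from whole dystrophic or injured muscle, and of these the infiltrating cells alone are used here. All 4 gates were sorted from uninjured, steady-state skeletal muscle of male Cx3cr1-GFP mice, in which green fluorescent protein (GFP) reports the locus of the fractalkine receptor gene Cx3cr1. Every gate was CD45+ CD11B+ LY6G- F4/80+ MERTK+, after perfusion and digestion of the muscle with collagenase and dispase. The 4 gates combined surface MHCII, absent or present, with GFP, absent or present, and gave 1 library each. How many animals lie behind a library, whether the gates share animals and whether the reporter allele was heterozygous are not stated in the labels. The table headers write GFP as CX3CR1.

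MHCII molecules are heterodimers on the cell surface that present peptides from ingested and degraded proteins to CD4 T cells. Their alpha and beta chains assemble with the invariant chain (Cd74), peptides are loaded with the help of the DM chaperones, and the genes are switched on together by the transactivator CIITA, which is recruited to the W, X and Y boxes of their promoters. Dendritic cells and B lymphocytes carry MHCII at all times, whereas macrophages carry it to a varying extent, and tissue macrophages are often divided into subsets by it.

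The Y box is an inverted CCAAT element, read as ATTGG on the coding strand, and the X2 part of the X box resembles the cyclic AMP response element TGACGTCA. Promoter windows from RefSeq (GRCm38.p6, the patch release of mm10), of 250 bases before to 50 bases after the start, were searched on both strands. Class II promoters are shown because the gates differ in all of these genes, and those of Ccl22 and Vsig4 because these genes lead the rest in the higher and the lower direction, apart from Amd2 and Amd1, whose levels are uncertain. Capitals mark ATTGG and TGACGTCA in the class II genes, and the ETS core GGAAGT, on either strand, in Ccl22 and Vsig4. Each sequence runs 5′ to 3′ on the strand of its gene.
H2-Aa, chr17:34287774-34288073, minus strand: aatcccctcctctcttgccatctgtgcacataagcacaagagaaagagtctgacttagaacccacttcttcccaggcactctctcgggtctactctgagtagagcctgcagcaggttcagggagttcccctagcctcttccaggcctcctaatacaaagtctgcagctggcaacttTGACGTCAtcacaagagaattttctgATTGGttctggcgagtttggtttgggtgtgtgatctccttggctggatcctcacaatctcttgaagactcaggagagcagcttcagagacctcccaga
H2-Eb1, chr17:34305617-34305916, plus strand: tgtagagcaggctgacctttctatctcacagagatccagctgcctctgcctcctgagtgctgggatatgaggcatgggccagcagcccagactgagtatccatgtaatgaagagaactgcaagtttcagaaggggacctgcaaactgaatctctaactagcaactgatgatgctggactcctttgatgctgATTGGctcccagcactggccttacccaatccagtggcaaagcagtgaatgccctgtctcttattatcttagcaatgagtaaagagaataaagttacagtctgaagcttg
H2-DMb1, chr17:34152941-34153240, plus strand: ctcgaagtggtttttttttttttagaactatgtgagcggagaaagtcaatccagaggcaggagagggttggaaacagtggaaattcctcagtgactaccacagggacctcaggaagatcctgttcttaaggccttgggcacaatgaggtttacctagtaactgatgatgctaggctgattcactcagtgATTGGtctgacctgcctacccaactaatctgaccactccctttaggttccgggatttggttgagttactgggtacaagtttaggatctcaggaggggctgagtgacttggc
Ccl22, chr8:94745434-94745733, plus strand: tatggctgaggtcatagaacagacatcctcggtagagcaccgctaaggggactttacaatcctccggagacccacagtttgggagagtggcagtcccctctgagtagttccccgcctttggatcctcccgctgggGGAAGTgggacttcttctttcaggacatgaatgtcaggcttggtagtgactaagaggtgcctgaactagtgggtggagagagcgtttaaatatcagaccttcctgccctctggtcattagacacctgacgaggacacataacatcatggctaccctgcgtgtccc
Vsig4, chrX:96293389-96293688, minus strand: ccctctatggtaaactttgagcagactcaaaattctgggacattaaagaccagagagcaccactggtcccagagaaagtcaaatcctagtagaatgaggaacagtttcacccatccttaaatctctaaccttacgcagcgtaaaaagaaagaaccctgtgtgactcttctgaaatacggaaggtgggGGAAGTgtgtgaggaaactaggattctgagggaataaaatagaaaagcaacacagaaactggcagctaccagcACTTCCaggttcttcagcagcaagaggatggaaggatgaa
ATTGG started 48 bases before the start of H2-Aa, 59 before that of H2-Eb1 and 61 before that of H2-DMb1, and TGACGTCA started 74 bases before that of H2-Aa. Of 11 class II genes listed, 8 had a sequence in the RefSeq promoter table, and 7 of these held ATTGG starting between 30 and 100 bases before a start, against 8.56% of all 32851 promoters. CCAAT on either strand, anywhere in the window, was in 37.4% of promoters, TGACGTCA in 1.79% and GGAAGT in 23.8%. The matches describe these letters and not bound sites.

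Values are FPKM, fragments scaled to transcript length and to the mapped total, as the authors deposited them, so that levels of different genes are per length. Below, a gene's 2 values in a pair are given as MHCII- against MHCII+, in the GFP- pair and then in the GFP+ pair, marked (GFP-) and (GFP+). A difference is MHCII+ minus MHCII- on the log2(FPKM + 1) scale, which understates changes of low genes, and a pair of values in brackets after a gene gives its differences in the GFP- and the GFP+ pair. Of 24338 genes, 11872 whose 4 gates averaged 1 FPKM or more were compared. With 1 library per gate there is no replicate error, and a gene was counted by size, where it passed 2-fold (a log2 difference of 1) in the same direction in both pairs, which share no library. In sorted cells measured in bulk, fewer cells of a type and less RNA per cell cannot be told apart.

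All 4 gates carried the transcripts of macrophages. Adgre1, which encodes F4/80, was at 251 against 226 FPKM (GFP-) and 276 against 283 FPKM (GFP+). Mertk, the apoptotic cell receptor used in the sort, was at 51.8 against 44.5 FPKM (GFP-) and 55.2 against 48.4 FPKM (GFP+). Csf1r, whose product binds the growth factors CSF1 and interleukin 34, was at 947 against 714 FPKM (GFP-) and 859.6 against 926 FPKM (GFP+). None of these 3 genes differed by 2-fold in either pair. Cx3cr1 itself was at 5.12 against 7.31 FPKM (GFP-) and 32.2 against 24.7 FPKM (GFP+). It was high in both GFP+ gates and low in both GFP- gates, the same order as GFP, on which the cells were sorted. The relative depth, taken from the ratios of the lowest values between libraries, was 1 for MHCII- GFP-, 0.903 for MHCII+ GFP-, 0.821 for MHCII+ GFP+ and 0.641 for MHCII- GFP+. The absolute depth is unknown.

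The genes of class II presentation, which the sort selects on, differed widely between the MHCII gates, and these values check the labels and are not a finding. H2-Aa, the alpha chain of I-A (chr17:34282744-34287823), was at 118 against 3066 FPKM (GFP-) and 73.6 against 3941 FPKM (GFP+). H2-Ab1, its beta chain, was at 102 against 2404 FPKM (GFP-) and 77.7 against 3258 FPKM (GFP+). H2-Eb1, the beta chain of I-E, was at 38.9 against 1335 FPKM (GFP-) and 23.1 against 1819 FPKM (GFP+). The 2 MHCII+ libraries lay far above the 2 MHCII- libraries in each of them. Cd74, the invariant chain, was at 468 against 6921 FPKM (GFP-) and 321 against 8909 FPKM (GFP+). Ciita, the transactivator, was at 2.19 against 16.3 FPKM (GFP-) and 0.617 against 15.0 FPKM (GFP+), with log2 differences of 2.44 and 3.30. The loading chaperones H2-DMa, H2-DMb1 and H2-DMb2 and their modulators H2-Oa and H2-Ob had log2 differences between 1.49 and 2.90. All 10 compared members of the list passed 2-fold in both pairs. The remaining listed gene, H2-Eb2, was under the filter on low values, at 0.091 against 0.831 FPKM (GFP-) and 0.107 against 1.8 FPKM (GFP+). The summed level of the list was 779 against 13988 FPKM (GFP-) and 542 against 18246 FPKM (GFP+), so the MHCII- gates were low but not empty of class II transcripts. H2-M2, a class I-like gene of the same complex that is not in the list, was at 0.108 against 1.91 FPKM (GFP-) and 0.0839 against 2.17 FPKM (GFP+).

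Across all genes the agreement of the pairs was limited to a small set. In the GFP- pair 130 genes (1.1% of those compared) were at least 2-fold higher in MHCII+ and 73 (0.615%) at least 2-fold lower. In the GFP+ pair 271 (2.28%) were higher and 168 (1.42%) lower, and after scaling the libraries to the same sum of FPKM these counts were 170 and 475. That scaling moved the median log2 difference of all genes to -0.06 in the GFP- pair and -0.19 in the GFP+ pair, against -0.01 and 0.02 as deposited, so that smaller differences in the GFP+ pair are relative to that choice. In both pairs 73 genes (0.615%) were higher and 9 (0.0758%) lower, and without the class II genes 63 (0.531%) were higher. The 73 genes are 56.2% of those higher in the GFP- pair and 26.9% of those higher in the GFP+ pair, and the 9 are 12.3% and 5.36% of those lower. An additive fit of MHCII and GFP over the 4 libraries (limma, Benjamini-Hochberg adjusted p under 0.05) called 75 of these 82 genes, all 82 with a mean trend, and the 7 not called without the trend include Il4i1, Ltb4r1, Ank2 and Sh3bgrl2. That fit leaves 1 residual degree of freedom, the disagreement between the pairs. It took the spread as shared by all genes, or with the trend by genes of like level, so it does not measure replicate error. The 82 genes were picked by size from the same 4 values, so their recovery by the fit was largely built in and does not test the calls. Both MHCII+ gates were at least 2-fold above both MHCII- gates for 58 genes and 2-fold below both for 5. With both MHCII+ gates set against MHCII- GFP- alone (without the MHCII- GFP+ library) 98 genes were higher and 56 lower, and against MHCII- GFP+ alone 164 and 72. The only genes past 2-fold in opposite directions in the 2 pairs were 7 entries (0.059%), 6 of them small RNAs or predicted genes.

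The spread of the pairs was unequal. The median size of the log2 difference was 0.146 in the GFP- pair and 0.321 in the GFP+ pair. Between the 2 replicate libraries of infiltrating cells at day 4, the only replicates among the sorted cells, the median size was 0.258 and 1.84% of 9805 genes passed 2-fold. The share past 2-fold was 1.71% in the GFP- pair and 3.70% in the GFP+ pair. The MHCII- GFP+ library was also the shallowest, and in its pair the median difference moved with transcript length, from 0.19 in the shortest to -0.15 in the longest of 3 groups of about equal size, while in the GFP- pair it was -0.0031 and 0.0013. Among genes with a known length, those higher in both pairs numbered 50 in the shortest, 15 in the middle and 7 in the longest group. Those lower in both pairs numbered 3, 1 and 5. The part of length in the counts was not tested.

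**Figure D1:**
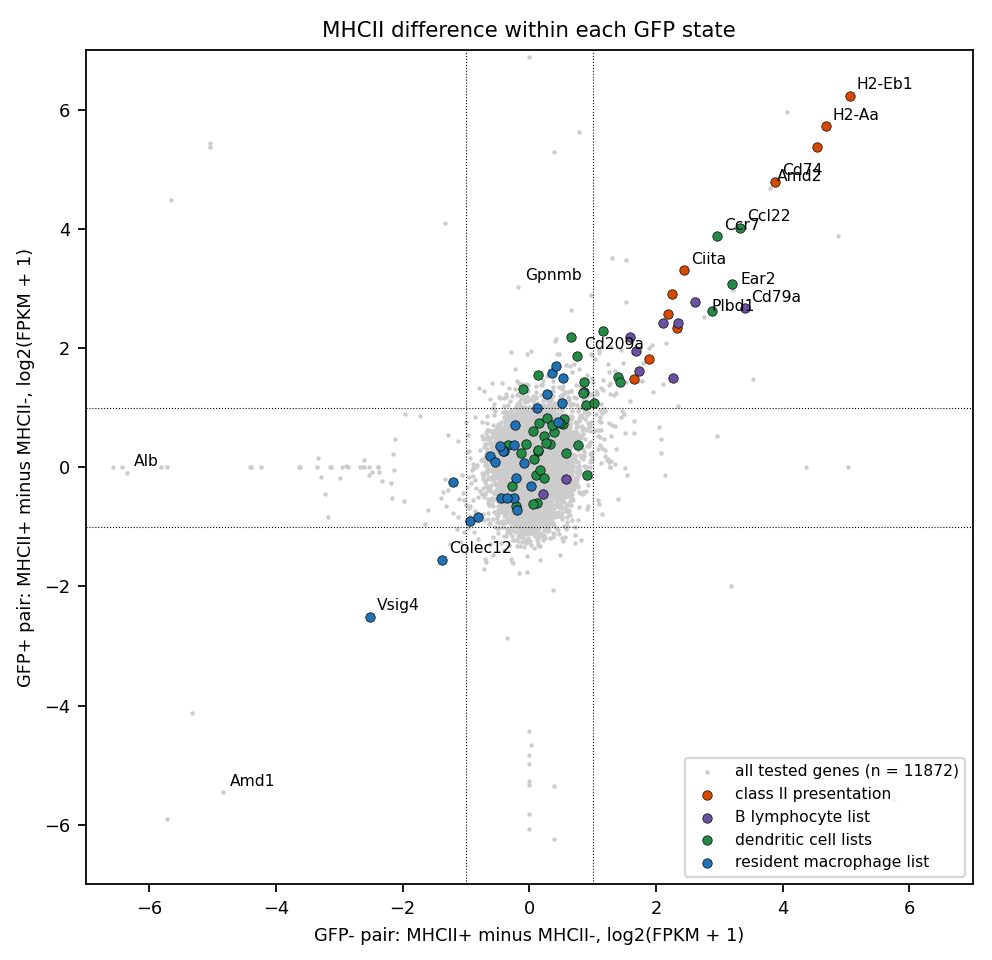
Each point is a gene, with the MHCII+ minus MHCII- difference in log2(FPKM + 1) among GFP- gates on the horizontal axis and among GFP+ gates on the vertical axis, and dotted lines at 2-fold. Class II, B lymphocyte and a few dendritic cell genes lie far out in the upper right, Vsig4 and Colec12 in the lower left, and many genes lie on 1 axis only.

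Outside the class II genes, 12 genes higher in both pairs were taken by the smaller of their differences among those with a mean of at least 5 FPKM. They include chemokine and migration genes of mature dendritic cells, antigen receptor genes of B lymphocytes, and genes of myeloid cells. Ccl22, a chemokine that attracts CCR4-bearing T cells (chr8:94745684-94751388), was at 0.312 against 12.2 FPKM (GFP-) and 0.417 against 21.9 FPKM (GFP+), with log2 differences of 3.33 and 4.01. Ccr7, the receptor that guides dendritic cells and lymphocytes into lymphatics and lymph nodes (chr11:99144199-99155077), was at 1.34 against 17.2 FPKM (GFP-) and 1.04 against 29.0 FPKM (GFP+), with log2 differences of 2.96 and 3.88. Both genes were near 1 FPKM or below in the 2 MHCII- gates and above 12 FPKM in the 2 MHCII+ gates. Aldh1a2, which makes retinoic acid from retinal, was at 2.13 against 10.6 FPKM (GFP-) and 1.36 against 8.46 FPKM (GFP+).

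Cd79a, which encodes the signalling chain Ig-alpha of the B cell receptor (chr7:24897497-24901858), was at 0.443 against 14.2 FPKM (GFP-) and 1.28 against 13.5 FPKM (GFP+). Cd79b, its partner Ig-beta, was at 2.42 against 10.3 FPKM (GFP-) and 3.77 against 13.6 FPKM (GFP+). Ly6d, a surface protein of early B lineage cells that stands here in the list of plasmacytoid dendritic cell genes, was at 0.704 against 11.5 FPKM (GFP-) and 0.655 against 9.15 FPKM (GFP+). All 3 were higher in the 2 MHCII+ gates than in the 2 MHCII- gates, and the MHCII+ values were close to each other.

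Plbd1, a phospholipase B-like protein of myeloid cells, reached the highest level of the 12, at 7.98 against 60.002 FPKM (GFP-) and 18.0 against 107 FPKM (GFP+). Gpr132, a G protein-coupled receptor of macrophages and lymphocytes, was at 7.15 against 27.0 FPKM (GFP-) and 18.0 against 50.9 FPKM (GFP+). Napsa, an aspartic peptidase, was at 3.24 against 12.9 FPKM (GFP-) and 3.66 against 11.6 FPKM (GFP+). For Plbd1 and Napsa the MHCII+ gates were at least 2-fold above both MHCII- gates, whereas Gpr132 in MHCII+ GFP- was above MHCII- GFP+ by less than that. Mmp12, the macrophage elastase, was at 9.86 against 30.3 FPKM (GFP-) and 0.631 against 10.1 FPKM (GFP+), so the MHCII- GFP- gate and the MHCII+ GFP+ gate had about the same level.

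Ear2, an eosinophil-associated ribonuclease that macrophages can express, was at 3.36 against 39.7 FPKM (GFP-) and 1.25 against 16.6 FPKM (GFP+). It belongs to a family of near-identical copies, and its level is uncertain where fragments can be assigned to another copy. Amd2, the highest of the 12 by this rule, was at 1.48 against 33.6 FPKM (GFP-) and 0.394 against 34.9 FPKM (GFP+), and Amd1 was at 28.4 against 0.0301 FPKM (GFP-) and 44.5 against 0.0374 FPKM (GFP+). Both encode S-adenosylmethionine decarboxylase, an enzyme of polyamine synthesis, and the table gives them the same locus. They went in opposite directions in the same gates, so how fragments were divided between the copies cannot be told apart from a difference in expression.

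**Figure D2:**
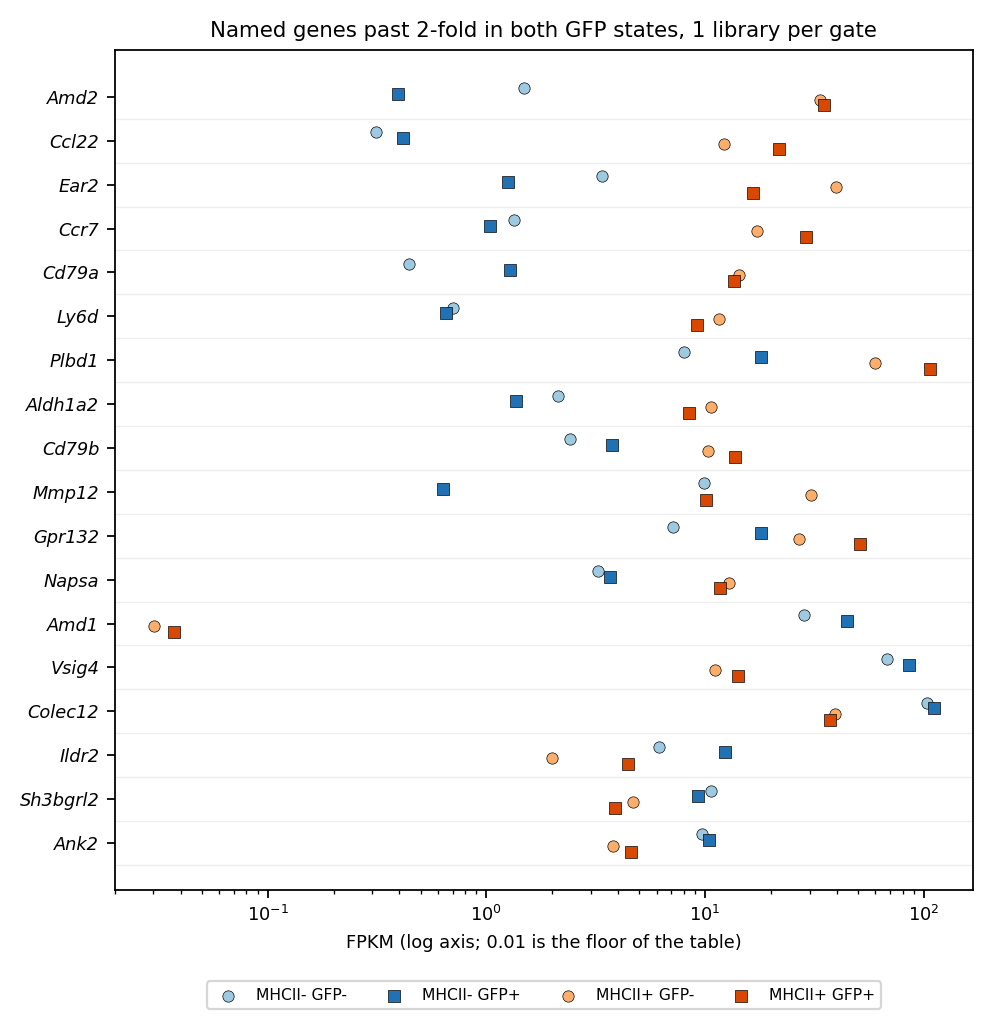
FPKM of each named gene on a log axis, with 1 point per gate and library, blue for MHCII- and orange for MHCII+, circles for GFP- and squares for GFP+. The upper genes have orange points to the right and the lower genes, from Amd1 down, have them to the left, and Mmp12 shows the least separation of the colours.

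In the other direction the leading gene apart from Amd1 was Vsig4, a complement receptor of the immunoglobulin superfamily found on resident macrophages (chrX:96247201-96293438). It was at 67.8 against 11.1 FPKM (GFP-) and 85.4 against 14.2 FPKM (GFP+), with log2 differences of -2.51 and -2.51. Its 2 MHCII- values lay together and its 2 MHCII+ values lay together, well below them. Colec12, a collectin-type scavenger receptor, was at 103 against 39.1 FPKM (GFP-) and 111 against 37.1 FPKM (GFP+), with log2 differences of -1.38 and -1.55. Ildr2, an immunoglobulin-like receptor of the B7 type, was at 6.16 against 1.99 FPKM (GFP-) and 12.3 against 4.44 FPKM (GFP+). For Ildr2 the MHCII+ GFP+ gate was within 2-fold of the MHCII- GFP- gate. Ank2, an ankyrin that anchors membrane proteins to the cytoskeleton, was at 9.63 against 3.79 FPKM (GFP-) and 10.4 against 4.59 FPKM (GFP+). Sh3bgrl2 was at 10.6 against 4.66 FPKM (GFP-) and 9.28 against 3.87 FPKM (GFP+) and Tshz3, a zinc finger transcription factor with a mean under 5 FPKM, at 4.84 against 1.72 FPKM (GFP-) and 6.85 against 2.28 FPKM (GFP+). The rest of the 9 were Amd1 and 2 small RNA entries.

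Around the threshold the order of the values was continuous. Just inside it on the higher side stood Ltb4r1, a leukotriene B4 receptor (1.005 and 1.06), and just outside it the mast cell carboxypeptidase Cpa3 (0.997 and 1.50). On the lower side Ank2 (-1.15 and -1.03) stood just inside, and coagulation factor V gene F5 (-0.96 and -1.02) and the hyaluronan receptor Lyve1 (-0.94 and -0.90) just outside.

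The list of resident macrophage genes held 26 members, all above the filter. In this list 2, Vsig4 and Colec12, were lower in both pairs (0.0758% of all genes) and none was higher. The medians of its log2 differences were -0.24 and 0.14, against -0.01 and 0.02 over all genes, and 10 of the 26 were negative and 7 positive in both pairs, against 24.0% negative and 24.3% positive over all genes. Lyve1 was at 801 against 417 FPKM (GFP-) and 825 against 441 FPKM (GFP+). Timd4, a phosphatidylserine receptor of self-renewing resident macrophages, was at 108 against 60.9 FPKM (GFP-) and 93.6 against 51.8 FPKM (GFP+). Neither passed 2-fold, although both MHCII+ gates were below both MHCII- gates in each. The folate receptor gene Folr2 was at 1148 against 972 FPKM (GFP-) and 703 against 909.9 FPKM (GFP+) and the haemoglobin scavenger receptor gene Cd163 at 472 against 444 FPKM (GFP-) and 426 against 448 FPKM (GFP+), within 2-fold in both pairs. F13a1, the A subunit of coagulation factor XIII, was at 1103 against 810.1 FPKM (GFP-) and 1173 against 824 FPKM (GFP+). The lectin genes Cd209d, Cd209f and Cd209g were 2-fold higher in the GFP+ pair alone (0.28 and 1.24, 0.36 and 1.57 and 0.41 and 1.71), where the MHCII- GFP+ gate was the low one. Marco, a scavenger receptor, was at 6.49 against 2.23 FPKM (GFP-) and 7.6 against 6.23 FPKM (GFP+), past 2-fold in the GFP- pair alone. The difference of these effects between GFP states was not tested. The pan-macrophage list (16 members) had none past 2-fold in both pairs and medians of -0.14 and 0.22.

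Genes of dendritic cells were higher in part. The list of migratory dendritic cells had medians of 0.57 and 1.08. In it 4 of 15 compared genes were higher in both pairs (0.615% of all genes) and none lower. Besides Ccl22 and Ccr7 these were Ccl17, the other ligand of CCR4, and Il4i1, a secreted amino acid oxidase. Ccl17 was at 0.01 against 8.24 FPKM (GFP-) and 0.33 against 10.3 FPKM (GFP+), where 0.01 is the floor written in the table, so no fold is given. Il4i1 was at 1.18 against 3.41 FPKM (GFP-) and 1.09 against 3.41 FPKM (GFP+). Fscn1 (0.27 and 0.41), which bundles actin, and Relb (0.05 and 0.61), an NF-kB subunit, did not pass.

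The list of type 2 and common conventional dendritic cells had medians of 0.76 and 0.59. In it 3 of 11 compared genes were higher in both pairs (0.615% of all genes). Flt3, the receptor for the dendritic cell growth factor FLT3 ligand, was at 0.0419 against 1.81 FPKM (GFP-) and 0.295 against 2.5 FPKM (GFP+). Itgax, which encodes CD11c, was at 8.11 against 19.4 FPKM (GFP-) and 1.51 against 11.2 FPKM (GFP+). Bcl11a, a transcription factor of lymphoid and dendritic progenitors, was at 0.179 against 2.13 FPKM (GFP-) and 0.0192 against 1.92 FPKM (GFP+). Flt3 and Bcl11a were below 0.3 FPKM in both MHCII- gates, while Itgax was present in all 4. Zbtb46, a transcription factor of conventional dendritic cells, was at 6.28 against 6.04 FPKM (GFP-) and 3.75 against 5.22 FPKM (GFP+) and did not follow the gates. In the list of type 1 conventional dendritic cells none of 10 passed in both pairs (medians 0.34 and 0.71), and its chemokine receptor Xcr1 was under 1 FPKM in every gate. The summed level of the 16 migratory genes was 593 against 766 FPKM (GFP-) and 796 against 1167 FPKM (GFP+). The summed level of the 13 type 2 and common genes was 202 against 309 FPKM (GFP-) and 124 against 271 FPKM (GFP+). The sort on F4/80 and MERTK is of a kind meant to leave out dendritic cells, and the part of such cells in the values of Ccl22, Ccr7 and the class II genes was not tested.

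Genes of B lymphocytes moved with the MHCII gates more than any other list with at least 3 compared members, after the class II genes, by the median of the mean of both pairs. Of 11 compared genes 8 were higher in both pairs (0.615% of all genes) and none lower, with medians of 1.72 and 1.95. Among them, besides Cd79a and Cd79b, were Ms4a1, Pax5, Fcmr, Fcer2a and Blk. Ms4a1, which encodes CD20, was at 0.194 against 4.77 FPKM (GFP-) and 0.907 against 4.39 FPKM (GFP+). Fcmr, the receptor for IgM, was at 0.665 against 9.17 FPKM (GFP-) and 0.431 against 8.78 FPKM (GFP+). Both were below 1 FPKM in the 2 MHCII- gates and between 4 and 10 FPKM in the 2 MHCII+ gates. Pax5, the factor that sets B cell identity, was at the floor of 0.01 FPKM in both MHCII- gates and at 2.04 (GFP-) and 3.61 FPKM (GFP+) in the MHCII+ gates. Bank1 (0.22 and -0.44) and Ebf1 (0.58 and -0.20) did not pass, and Bank1 was above 22 FPKM in every gate. Further B cell genes outside the list, picked after their values were seen, were past 2-fold in both pairs, among them the transcriptional coactivator Pou2af1 (2.16 and 2.08), the chemokine receptor Cxcr5 (1.94 and 2.05), the BAFF receptor Tnfrsf13c (1.64 and 1.91) and the ETS factor Spib (1.79 and 1.75).

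The summed level of the 12 B lymphocyte genes was 36.2 against 97.1 FPKM (GFP-) and 56.2 against 99.1 FPKM (GFP+). One member of the list was at the floor in each MHCII- gate and none in the MHCII+ gates. B lymphocytes carry surface MHCII and the sort asked for CD11B, F4/80 and MERTK, which they usually lack, and the part of such cells in the difference between the gates was not tested. Of the 73 genes higher in both pairs, 10 stood in the class II list, 8 in the B lymphocyte list and 8 in the dendritic cell lists (Ly6d through the plasmacytoid list), and 39 in none of the lists.

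Mast cell genes were positive in both pairs too. In the mast cell and basophil list all 6 compared genes had a positive difference in both pairs (24.3% of all genes compared had one). The medians were 0.81 and 2.07, the second above the B lymphocyte median of the GFP+ pair. The 1 gene past 2-fold in both pairs was the tryptase Tpsb2, at 1.12 against 5.07 FPKM (GFP-) and 0.248 against 12.95 FPKM (GFP+). The chymase Mcpt4 was at 2.77 against 6.38 FPKM (GFP-) and 1.94 against 20.95 FPKM (GFP+), highest in MHCII+ GFP+. The summed level of the 11 mast cell and basophil genes was 15.2 against 28.7 FPKM (GFP-) and 13.9 against 65.2 FPKM (GFP+), with 2 members at the floor in each MHCII- gate and 1 in each MHCII+ gate. Among 7 compared genes of T and natural killer lymphocytes, Cd2, an adhesion receptor, passed, at 12.0 against 28.0 FPKM (GFP-) and 7.37 against 22.1 FPKM (GFP+). The T cell receptor genes Cd3d and Cd3e stayed under 1 FPKM in every gate. The summed level of the 17 T and natural killer genes was 34.9 against 57.5 FPKM (GFP-) and 29.1 against 50.2 FPKM (GFP+). No member of the lists for neutrophils (10 compared), fibro-adipogenic progenitors (12) or endothelium (12) passed in both pairs.

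**Figure D3:**
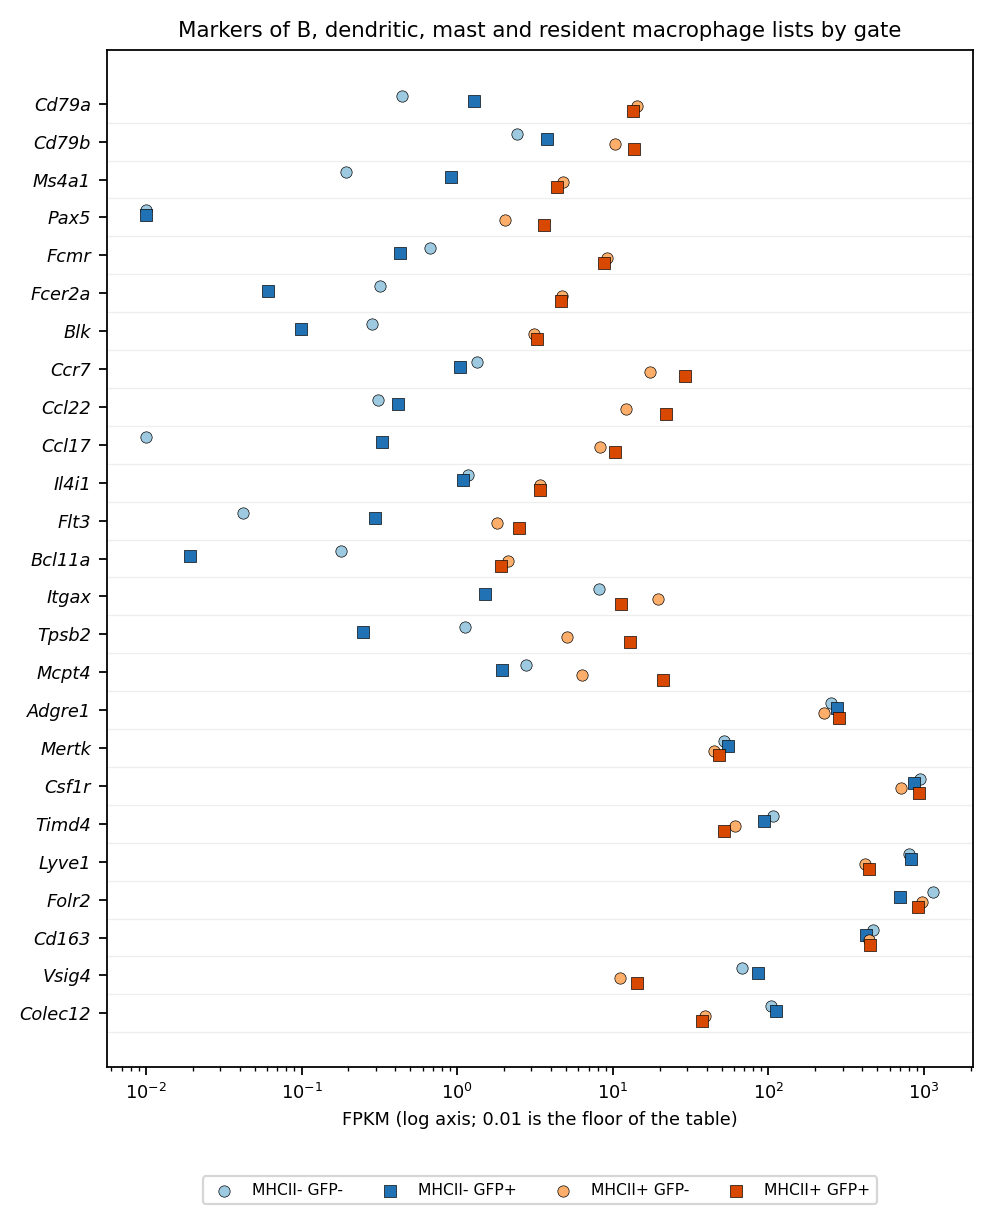
FPKM on a log axis, 1 point per gate and library, for B lymphocyte genes (Cd79a to Blk), dendritic cell genes (Ccr7 to Itgax), mast cell genes (Tpsb2, Mcpt4), general macrophage genes (Adgre1 to Csf1r) and resident macrophage genes (Timd4 to Colec12). Orange MHCII+ points lie to the right for the first groups and close to the blue MHCII- points for the general macrophage genes. They lie to the left for Vsig4 and Colec12, and by less than 2-fold within each pair for Timd4 and Lyve1.

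A few monocyte and inflammatory genes were higher in the MHCII+ gates. In the inflammatory monocyte list 2 of 11 compared genes were higher in both pairs (0.615% of all genes), with medians of 0.73 and 0.87. Ccr2, the receptor by which monocytes leave the bone marrow and enter tissue, was at 11.6 against 47.9 FPKM (GFP-) and 18.0 against 44.7 FPKM (GFP+), with both MHCII+ gates at least 2-fold above both MHCII- gates. The other was Napsa. Ly6c2, which marks classical monocytes, was low in all gates, at 2.79 against 3.77 FPKM (GFP-) and 1.26 against 3.56 FPKM (GFP+). Plac8 was at 11.0 against 17.7 FPKM (GFP-) and 9.3 against 17.8 FPKM (GFP+) and did not pass. Gpr141 was under 2 FPKM in every gate, and Hp, which encodes haptoglobin, was lower in MHCII+ in the GFP- pair (-1.36 and -0.42).

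Of 22 compared chemokine ligands 20 had a positive difference in both pairs (24.3% of all genes compared had one), with medians of 0.73 and 0.42. In both pairs 3 of them were higher by 2-fold (0.615% of all genes). Besides Ccl22 and Ccl17 the third was Ccl5, an attractant of T cells, at 9.17 against 23.1 FPKM (GFP-) and 14.2 against 49.4 FPKM (GFP+). The abundant macrophage chemokines had smaller differences. Ccl3 was at 289 against 515 FPKM (GFP-) and 751 against 1515 FPKM (GFP+) and Ccl4 at 430.0 against 816 FPKM (GFP-) and 1112 against 2309.5 FPKM (GFP+), both attractants of monocytes and T cells. The neutrophil attractant Cxcl2 was at 624 against 1328 FPKM (GFP-) and 2036 against 2931 FPKM (GFP+). For these 3 the MHCII- GFP+ gate was above the MHCII+ GFP- gate, so the levels did not follow MHCII over all 4 gates.

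Of 14 inflammatory cytokines Il1b, interleukin 1 beta, was the one past 2-fold in both pairs, at 49.0 against 150.0 FPKM (GFP-) and 244 against 529 FPKM (GFP+). Here too the MHCII- GFP+ gate was above the MHCII+ GFP- gate. Il1a had log2 differences of 1.51 and -0.02 and Tnf of 0.58 and 0.62. Il10, an anti-inflammatory cytokine, was at 30.5 against 66.9 FPKM (GFP-) and 56.0 against 109 FPKM (GFP+), past 2-fold in the GFP- pair alone (1.11 and 0.95). Ifnb1, interferon beta, which was in no list, was at 8.44 against 22.9 FPKM (GFP-) and 32.1 against 75.9 FPKM (GFP+). Among 15 listed interferon-stimulated genes none passed in both pairs (medians 0.33 and 0.41). Log2 differences were 0.85 and 1.12 for Isg15 and 0.92 and 1.22 for Rsad2. Of the 15, 12 had a positive difference in both pairs (80%, against 24.3% of all genes compared) and 0 a negative one. A high share, here and among the chemokine ligands, was not particular to immune genes. It was 27 of 30 for cytosolic ribosomal protein genes and 8 of 11 for muscle fibre genes, but 2 of 29 for oxidative phosphorylation genes. Oasl1, an interferon-stimulated gene in no list, picked after its values were seen, was past 2-fold in both pairs. The mean of its 2 log2 differences was 1.51. Of 10 compared costimulatory genes none passed in both pairs (medians 0.41 and 0.56), while 8 had a positive difference in both (80%) and 1 a negative one. Cd80 was at 9.46 against 9.87 FPKM (GFP-) and 12.0 against 14.3 FPKM (GFP+). Cd86 was at 48.3 against 49.6 FPKM (GFP-) and 108 against 78.4 FPKM (GFP+), and Cd40 at 34.4 against 35.6 FPKM (GFP-) and 31.6 against 48.0 FPKM (GFP+). None of the 10 genes of class I presentation passed in both pairs (medians 0.15 and 0.65), and H2-K1, a class I heavy chain, was lowest in MHCII- GFP+, at 591 against 649 FPKM (GFP-) and 392 against 731 FPKM (GFP+).

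**Figure D4:**
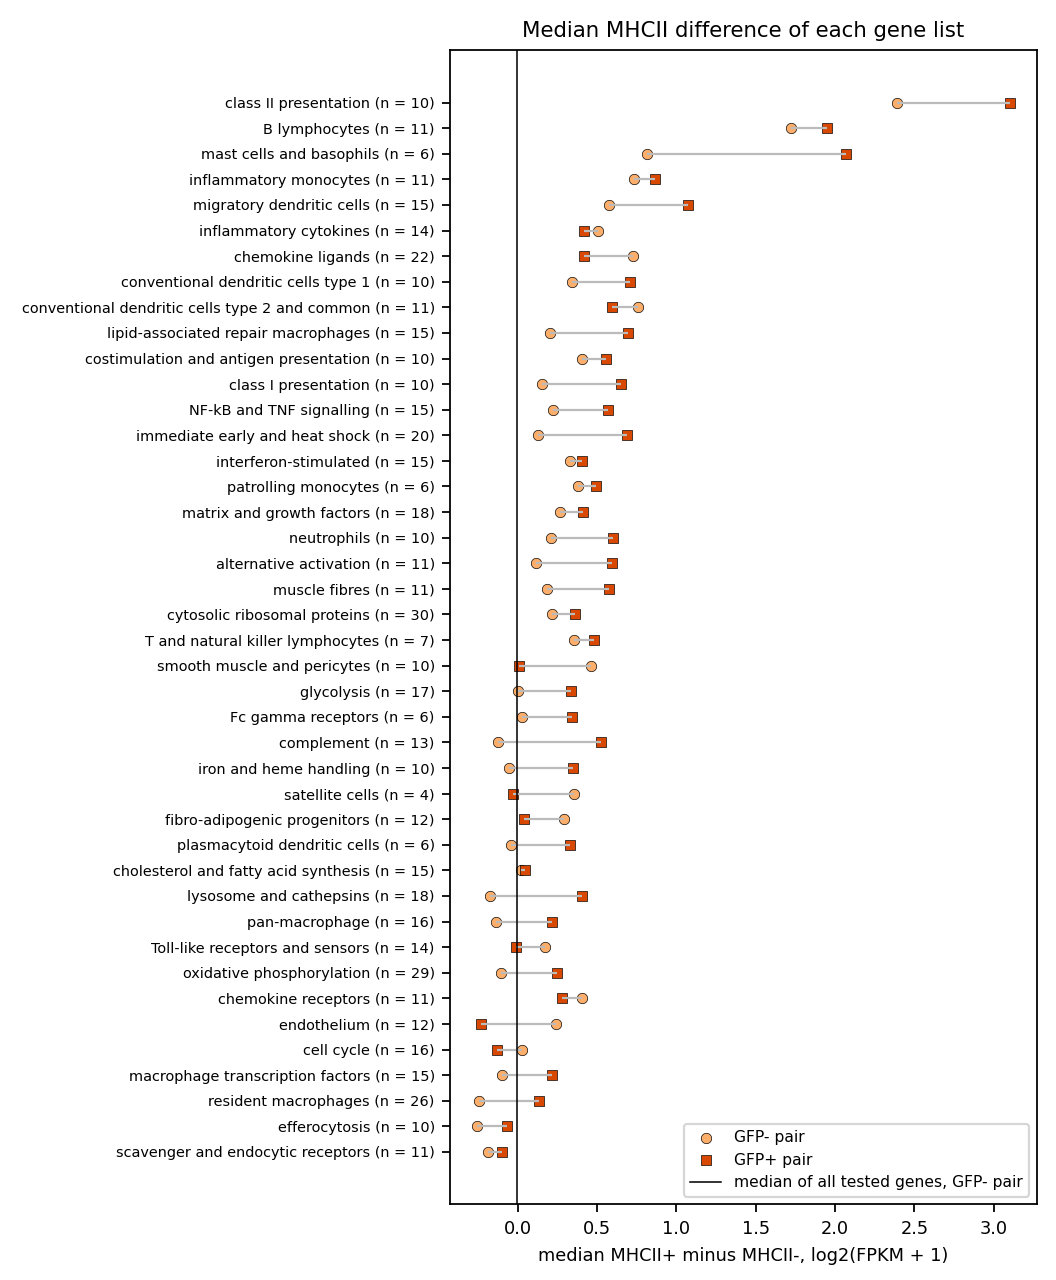
Median MHCII+ minus MHCII- difference in log2(FPKM + 1) of each gene list with at least 3 compared members, with a circle for the GFP- pair, a square for the GFP+ pair and the number of compared genes in brackets. Class II and B lymphocyte lists stand far to the right in both pairs, and most other lists lie between -0.3 and 1, often with the square to the right of the circle.

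Some genes differed between the pairs. The gap between the 2 log2 differences was at least 1 for 613 genes (5.16%), and it was not tested. Alb, serum albumin, was at 84.2 against 0.0433 FPKM (GFP-) and 0.122 against 0.0475 FPKM (GFP+), so it was above 0.2 FPKM in the MHCII- GFP- library alone. Apoa1 and Fabp1, both genes of liver and intestine, were at 22.1 and 20.4 FPKM there and at 0.1 FPKM or less in the other 3 libraries. Apoa2, a further apolipoprotein of the liver, was at 32.2 against 2.65 FPKM (GFP-) and 3.53 against 1.53 FPKM (GFP+), highest in the same library. The source of these hepatocyte transcripts was not tested.

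Gpnmb, a glycoprotein of lipid-laden macrophages, was at 181 against 160.3 FPKM (GFP-) and 3.52 against 35.8 FPKM (GFP+), high in both GFP- gates, lower in MHCII+ GFP+ and lowest in MHCII- GFP+. Other genes of the lipid-associated list, Spp1 (159.5 against 184 FPKM (GFP-) and 26.9 against 71.7 FPKM (GFP+)) and Fabp5 (134 against 187 FPKM (GFP-) and 19.2 against 74.7 FPKM (GFP+)), had the same lowest gate. Of 15 compared genes of that list 2, Itgax and Mmp12, were higher in both pairs (0.615% of all genes). The medians of the list were 0.21 and 0.70. Retnla, a secreted protein of alternative activation, was at 5410.0 against 10646 FPKM (GFP-) and 1579 against 5930.5 FPKM (GFP+), again lowest in MHCII- GFP+. Hba-a2, an alpha globin, was at 137 against 236 FPKM (GFP-) and 0.0605 against 51.4 FPKM (GFP+), while its near-identical copy Hba-a1 was at 31.7 against 70.7 FPKM (GFP-) and 59.2 against 62.4 FPKM (GFP+), so the division of fragments between them is uncertain.

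In 6 further genes the signed difference was higher in the GFP- pair than in the GFP+ pair, and some of these are of the same uncertain kind. Eif3j1, a subunit of translation initiation factor 3 with a close copy in the genome, was at 0.102 against 0.12 FPKM (GFP-) and 27.4 against 0.123 FPKM (GFP+), present in the MHCII- GFP+ library alone, so that its difference is in the GFP+ pair. Rps27, a ribosomal protein with copies, was at 8.59 against 73.5 FPKM (GFP-) and 10.4 against 15.5 FPKM (GFP+). Tnip3, an inhibitor of NF-kB signalling, was at 0.974 against 7.3 FPKM (GFP-) and 11.2 against 13.4 FPKM (GFP+), low in MHCII- GFP- alone. Aspn (0.53 and -1.23) and Ogn (0.73 and -0.996), small proteoglycans of fibroblasts that share a locus in the table, and Cmc4 (1.08 and -0.54) completed the 6.

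Infiltrating cells offer a view of the same genes in other cells. They were CD45+ CD11B+ LY6G/SIGLECF- GFP+ cells from the damaged tibialis anterior of the wild-type partner of female parabiotic pairs with a GFP partner, sampled after injury on day 2 (1 library), day 4 (2 libraries) and day 6 (1 library). They were not gated on MHCII, and their table was normalized separately, so their levels are not compared with those of the resident gates. H2-Aa was at 551 FPKM on day 2, 2198 and 2956 FPKM on day 4 and 5261 FPKM on day 6. Ccl22 was at 3.13 FPKM on day 2, 23.0 and 15.3 FPKM on day 4 and 49.9 FPKM on day 6. Ccr7 was at 9.82 FPKM on day 2, 36.2 and 30.2 FPKM on day 4 and 72.5 FPKM on day 6. Each was lowest on day 2 and highest on day 6. The titles of these libraries also hold a figure ending in k that falls from day 2 to day 6. What goes with day and what goes with that figure cannot be told apart, here and in the counts below.

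Itgax was at 18.5 FPKM on day 2, 80.7 and 47.9 FPKM on day 4 and 102 FPKM on day 6 and Flt3 at 2.83 FPKM on day 2, 7.73 and 5.18 FPKM on day 4 and 11.8 FPKM on day 6, in the same order. Of the 73 genes higher in both resident pairs, 53 were compared here (averaging 1 FPKM or more), and 27 of them were at least 2-fold higher on day 6 than on day 2 and 2 lower. Over all 9805 compared genes 6.33% were higher and 4.14% lower, and without the class II genes the counts were 17 and 2 of 43. Of the B lymphocyte genes 11 were in this table, and 8 of them, Cd79a and Ms4a1 included, were under 1 FPKM in every infiltrating library. Bank1, Cd22 and Cd79b were not, and Cd79b was at 1.58 FPKM on day 2, 5.22 and 7.52 FPKM on day 4 and 8.77 FPKM on day 6. Plbd1 was at 159 FPKM on day 2, 94.2 and 83.9 FPKM on day 4 and 161 FPKM on day 6, with no order by day.

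Vsig4 was at 0.04 FPKM on day 2, 0.173 and 0.0528 FPKM on day 4 and 0.13 FPKM on day 6, and Timd4 at 0.0789 FPKM on day 2, 0.171 and 0.0696 FPKM on day 4 and 0.543 FPKM on day 6. Colec12 was at 1.8 FPKM on day 2, 2.75 and 1.81 FPKM on day 4 and 1.93 FPKM on day 6. Vsig4 was thus below 0.2 FPKM at all 3 times, and Lyve1 reached its highest level of 3.22 FPKM on day 6.

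**Figure D5:**
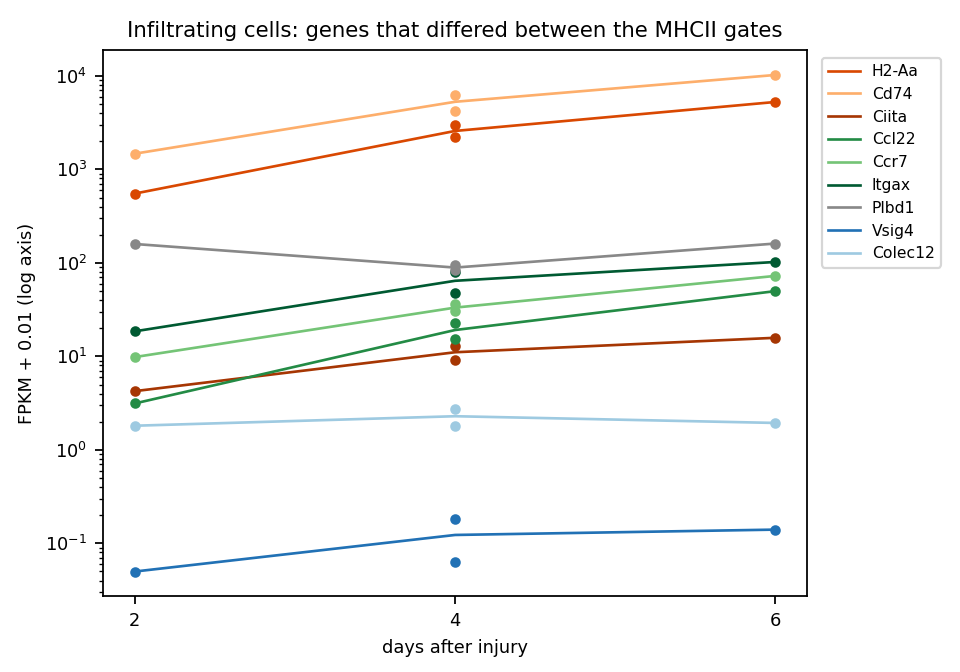
FPKM (plus 0.01, log axis) of 9 genes in infiltrating cells at day 2, day 4 and day 6 after injury, with 1 point per library and a line through the mean of each day. H2-Aa, Cd74, Ciita, Ccl22, Ccr7 and Itgax climb from day 2 to day 6, Plbd1 and Colec12 have no order by day, and Vsig4 stays below 0.2 FPKM.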

How the data were processed

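The values are FPKM per gene and library, as deposited by the authors in 1 table per experiment. Per the submitters' processing notes, the tools were Cufflinks, STAR, Bowtie and bcl2fastq and the genome build was mm10 (neither the version nor the role of a tool is named), and per the labels' protocols the libraries were stranded, from messenger RNA, and read as paired ends. The resident table gives 0.01 FPKM as its lowest value, and a gene at that floor in a gate is given no fold. Of 24340 entries 2 that had been overwritten were left out. Mitochondrially encoded genes summed to 0 FPKM in the 4 resident libraries, so this sign of RNA quality could not be read. Column sums were 466142 to 550454 FPKM, and the libraries were compared as deposited.

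The gates were taken from the sample labels, and columns were matched to them by name. Values were transformed as log2(FPKM + 1) and differences formed within each GFP state for genes averaging 1 FPKM or more. Calls were made by size, since 1 library per gate gives no replicate error. Relative depth came from the most frequent ratio between a library and MHCII- GFP- (day 2 for infiltrating cells), among values under 0.2 FPKM in both. In infiltrating cells, where alignments are listed, the same estimate gave 0.924, 0.756 and 0.920 of day 2 against 0.922, 0.749 and 0.926 from the alignments. Gene coordinates and promoters are from RefSeq, matched by symbol, with coordinates for 632 of 635 described entries, and transcript lengths are from GENCODE M21, with a length for 96.3% of compared genes, which were split by length into groups of equal size. The calculation was tested on simulated data with planted differences and an even spread, which checks the code and not the calls. Python 3.11.15, numpy 2.4.6, pandas 2.3.3, matplotlib 3.10.9, R 4.3.3 and limma 3.58.1 were used.

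The genes named were the 12 in each direction with the largest smaller difference of the 2 pairs among genes past 2-fold in both and with a mean of at least 5 FPKM (fewer in the lower direction), the 6 in each direction with the largest gap between the pairs, the markers H2-Aa, Ccl22, Ccr7 and Vsig4, the class II genes and members of 43 gene lists. Predicted genes, small RNAs, pseudogenes (by RefSeq) and gene segments were not named, and some list members that enter the counts are not reported here. Other list members, and the genes in no list that are given with values, were picked after their values were seen. The members and lists were chosen with earlier results of these data known. Alternatives were pseudocounts of 0.1 and 5, other scalings and filters and, added later, leaving out a library or the small RNAs and predicted genes, and an additive limma fit of MHCII and GFP on the log2 values with 1 residual degree of freedom.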

Additional observations from a re-analysis of the deposited data

Results flagged for a closer look

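Snhg9, a small nucleolar RNA host gene, was the one named gene past 2-fold in opposite directions in the GFP states. It was at 17.8 against 6.43 FPKM (GFP-) and 0.01 against 16.3 FPKM (GFP+). Its log2(FPKM + 1) difference was -1.34 in the GFP- pair and 4.10 in the GFP+ pair, and the MHCII- GFP+ value is the floor of the table, so no fold is given. With 1 library per gate the difference between the GFP states was not tested.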

How the results depend on the processing

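The counts depend on how low values are treated. No paired analysis was possible because each gate has 1 library, so that a block by replicate number would hold all 4 libraries. Shares are of the 11872 genes compared, higher before lower. With a pseudocount of 0.1 FPKM they were 1.002% and 0.2274% in both pairs, 1.971% and 0.9687% in the GFP- pair, 3.858% and 3.235% in the GFP+ pair, 0.1769% in opposite directions and 9.821% with a gap of at least 1 between pairs. With a pseudocount of 5 they were 0.278% and 0.04212%, 0.4296% and 0.3369%, and 0.8592% and 0.3454%, with 1.348% past the gap. Next, only genes of a mean of at least 5 FPKM were counted, still as shares of the 11872. Of these shares 0.3622% were higher in both pairs and 0.6402% and 0.2527% changed in the GFP- pair. In the GFP+ pair 1.381% and 0.8929% changed, and 2.914% were past the gap. Without a filter on low values, the genes lower in the GFP- pair came to 0.9434% of the same 11872. Scaled to the same sum of FPKM, 0.1179% were lower in both pairs, and 1.432% were higher and 4.001% lower in the GFP+ pair. Scaling by the median of ratios moved no count by more than 1.5 times.

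The next alternatives were chosen after seeing the data. Without small RNAs, predicted genes and pseudogenes 1 gene (0.008423%), Snhg9, went in opposite directions. Against MHCII- GFP- alone 0.4717% were lower, 6 of them shared with the 9. Against MHCII- GFP+ alone 1.381% were higher, with 65 shared with the 73, and 0.6065% lower, with 8 shared. The additive limma fit called 0.5138% lower, and with a mean trend 1.424% higher and 0.6739% lower. It took the spread as shared by all genes, or with the trend by genes of like level. The mean difference of the pairs kept its direction in all 82 genes called in both pairs under the 2 pseudocounts and the 2 scalings. This was fixed in advance and does not test the calls. A pseudocount cannot turn a difference round, and scaling factors from 0.93 to 1.10 cannot turn round one past 2-fold. List medians near 0 did change sign: 8 turned negative with equal sums, among them the pan-macrophage list (from 0.06 to -0.09, mean of both pairs), and 2 turned positive at a mean of at least 5 FPKM. Of the alternative values of list medians 257 moved by less than the spread between the pairs and 43 by more. The causes of these shifts were not tested, and the absolute depth, which limits what low values show, is unknown.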
